A study of Mus musculus with 2 samples.

Results

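The 10 genes described here mark the branches and states of dendritic cells: Xcr1, Clec9a and Batf3 for type 1 conventional dendritic cells (cDC1), Cd209a for a part of the type 2 cells (cDC2), Flt3 and Zbtb46 for the lineage as a whole, Fscn1, Ccl22 and Ccl17 for cells that have matured and migrate, and Siglech for plasmacytoid dendritic cells (pDCs). They were chosen by name, and make up 10 of the 22337 symbols in the matrix. Single-cell RNA sequencing covered 4441 cells in 14 annotated types from 6 Bm12 hearts at day 14 after transplantation into C57BL/6 (B6) recipients. The donor strain, Bm12, differs from B6 by a mutant class II protein, so that the recipient's CD4+ T cells react to the graft. Of the grafts, 3 were labelled IL-33+ (hearts 1 to 3, Bm12 with intact Il33) and 3 were labelled IL-33- (hearts 4 to 6, Bm12 crossed onto il33-/-). All recipients were wild-type B6, so that recipient cells kept Il33 in both groups. The 6 hearts carried separate hashtags and were sequenced as 1 pooled library, and a heart is the unit of replication throughout.

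Dendritic cells take up antigen and present it to T cells. In the bone marrow, FLT3 ligand acts through the receptor FLT3 to expand their precursors, and the transcription factor ZBTB46 marks the conventional lineage once it has separated from monocytes. The cDC1 branch depends on BATF3 and IRF8, takes up dead cells through CLEC9A, and carries XCR1, the receptor for the lymphocyte chemokine XCL1. The cDC2 branch is more varied, and CD209A is a lectin of the DC-SIGN family found on some of its cells and on monocyte-derived cells. On maturation, dendritic cells bundle actin with fascin (FSCN1), turn on CCR7 and secrete CCL22 and CCL17, both ligands of CCR4 on T cells. SIGLEC-H is a surface lectin of mouse pDCs, which make type I interferon and need the transcription factor TCF4.

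The annotation placed 171 cells among conventional dendritic cells (cDCs), 88 from IL-33+ hearts and 83 from IL-33- hearts. Hearts 1 to 6 gave 38, 6, 44, 48, 9 and 26 cDCs, so that hearts 2 and 5 rest on few cells. The cDCs held 49064 to 315696 UMIs (unique molecular identifiers, each standing for 1 captured transcript) per heart, with a median of 6544 per cell. Of the antigen presentation genes, Cd74 was nearly universal, with a UMI in all 32 cells with Siglech and in 137 of the other 139. Others of that list varied: among the 48 cDCs of heart 4, H2-Ab1 had a UMI in 45, Itgax in 16 and Ciita in 13. Of T cell, B cell and NK cell markers, 11 cDCs held 2 or more from one list. In fibroblasts, Il33 averaged 24.3, 0 and 50.7 CPM (UMIs scaled to a common total per cell) in hearts 1 to 3 and 32.6, 73.8 and 16.1 in hearts 4 to 6. The transcript thus did not separate the labels, and whether the 3′ tags fall outside the deleted part of the gene is not known here.

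Promoter windows are shown for the 4 genes whose transcripts defined the clearest groups of cells below: the 3 genes of mature cells and Siglech. Each runs from 250 bases before to 50 bases after the RefSeq start, 5′ to 3′ on the plus strand of GRCm38.p6, the build that mm10 is made from. Capitals mark CACCTG, an E-box of the kind bound by E proteins such as TCF4.
Fscn1, chr5:142960105-142960404: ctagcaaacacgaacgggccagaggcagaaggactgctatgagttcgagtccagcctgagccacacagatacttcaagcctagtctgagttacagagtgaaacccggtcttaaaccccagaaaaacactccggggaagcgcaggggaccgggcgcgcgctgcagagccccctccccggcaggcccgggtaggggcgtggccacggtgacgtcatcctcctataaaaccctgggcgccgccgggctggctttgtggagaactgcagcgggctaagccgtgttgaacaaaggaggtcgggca
Ccl22, chr8:94745434-94745733: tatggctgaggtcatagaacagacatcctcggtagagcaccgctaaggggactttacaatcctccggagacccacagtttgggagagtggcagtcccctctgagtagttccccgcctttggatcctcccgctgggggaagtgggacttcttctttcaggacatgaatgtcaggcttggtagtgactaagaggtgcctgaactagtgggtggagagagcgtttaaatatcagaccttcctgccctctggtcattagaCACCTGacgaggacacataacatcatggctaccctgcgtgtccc
Ccl17, chr8:94810203-94810502: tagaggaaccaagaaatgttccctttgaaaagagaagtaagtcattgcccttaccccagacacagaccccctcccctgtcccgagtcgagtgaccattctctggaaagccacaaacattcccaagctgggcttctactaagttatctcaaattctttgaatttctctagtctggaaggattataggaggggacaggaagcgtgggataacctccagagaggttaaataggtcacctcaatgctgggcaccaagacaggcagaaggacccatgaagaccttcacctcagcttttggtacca
Siglech, chr7:55767934-55768233: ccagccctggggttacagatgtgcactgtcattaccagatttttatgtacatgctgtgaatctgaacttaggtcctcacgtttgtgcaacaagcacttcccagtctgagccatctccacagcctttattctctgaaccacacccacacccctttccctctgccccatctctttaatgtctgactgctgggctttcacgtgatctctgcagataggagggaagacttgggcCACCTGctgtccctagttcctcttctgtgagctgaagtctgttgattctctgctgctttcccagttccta
Both strands were searched. CACCTG occurred 20 bases before the start of Siglech and 6 bases after that of Ccl22, and in 20.2% of all 32851 promoter windows of this length. Neither the kappaB consensus, found in 4.51% of windows, nor the AP-1 motif TGANTCA, found in 7.81%, nor the PU.1 motif GAGGAAG, found in 13.6%, occurred in any of the 4 windows. A match is a description of letters, not a site. Ccl22 (94745590 to 94751699) and Ccl17 (94810453 to 94812036) lie 58754 bp apart on the plus strand of chromosome 8 in GENCODE vM21, with Cx3cl1 as the only protein-coding gene between them. Clec9a (chromosome 6, 129408862 to 129424763, plus strand) overlaps Clec1b on the same strand. Cd209a (chromosome 8, 3743397 to 3748984, minus strand) belongs to a family of close copies, among which reads may be divided.

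Every one of the 10 genes had its highest mean level in cDCs, but the share of its transcripts found there ranged from 21.0% of 396 UMIs for Zbtb46 to 83.9% of 380 UMIs for Siglech. These levels are a description without a test, since the types were named from these cells and Flt3 and Cd209a were among the genes used. Flt3 stood apart most clearly among the broadly detected genes, with a mean of 256 CPM in cDCs against 27.1 CPM in the next type, unconventional T cells, and with all 6 hearts (222 to 361 CPM in cDCs) above every heart of that type (at most 90.7 CPM). For Zbtb46, by contrast, cDCs averaged 72.3 CPM, NK cells 43.0 CPM and NKT cells 25.8 CPM, and the ranges over hearts of cDCs and NK cells overlapped.

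**Figure D1:**
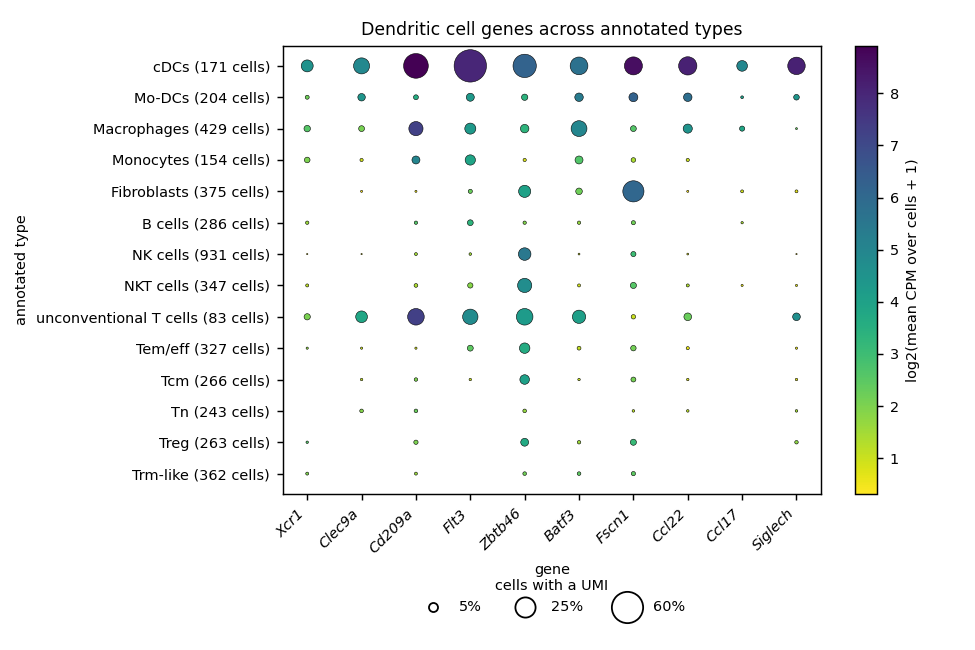
Size of each point gives the percentage of cells of a type (rows) with a UMI of a gene (columns), and color gives log2 of the mean CPM over those cells plus 1. All 10 genes are highest in cDCs, Zbtb46 extends into NK and NKT cells, Cd209a into macrophages and unconventional T cells, and Fscn1 into fibroblasts. No point is drawn where a type held no UMI.

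The genes of cDC1 were sparse. Xcr1, the chemokine receptor, had 74 UMIs in the whole series, 37 of them in 15 cDCs, for a mean of 22.0 CPM. Clec9a, the receptor for dead cells, had 76 UMIs, 38 of them in 27 cDCs, for 28.9 CPM, and its level in monocyte-derived DCs (Mo-DCs) was 20.7 CPM from 10 UMIs. When each cell was thinned to 1500 UMIs, 2.73% of cDCs kept a UMI of Xcr1 against 0.0383% of NK cells, which should lack it and had a median of 2712 UMIs. Other lymphocytes differed from NK cells, with 0.368% of Tregs, 0.308% of B cells and 0% of naive T cells. For Clec9a the thinned shares were 4.12% of cDCs, 2.49% of Mo-DCs and 0.0904% of NK cells. Naive T cells were at 0.416% for Clec9a, and Tregs and B cells at 0%. The ranges over hearts of cDCs and Mo-DCs overlapped for Clec9a, Batf3 and Ccl17. The mean of Batf3 was 51.1 CPM over cDCs, 40.9 CPM over Mo-DCs and 30.1 CPM over macrophages, where 66 of 429 cells had a UMI.

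Cd209a reached well beyond cDCs. Its 574 UMIs in 64 cDCs gave a mean of 483 CPM, but macrophages held another 545 UMIs in 53 of 429 cells (152 CPM) and the annotated unconventional T cells 144 UMIs in 14 of 83 cells (157 CPM). Among macrophages, the 53 cells with Cd209a averaged 81.2 CPM of Flt3 and 41.7 CPM of Zbtb46, compared with 9.71 and 4.56 CPM in the 376 cells without it. They averaged 513 CPM of Clec10a and 658 CPM of Mgl2, lectins of cDC2 and of some macrophages, compared with 114 and 153 CPM, and 687 CPM of the complement gene C1qa, compared with 1279 CPM. Their median depth was 8003 UMIs against 6405. Other dendritic cell genes lay the other way, with Batf3 at 21.6 against 31.3 CPM and Fscn1 at 0 against 5.87 CPM. Of the 83 unconventional T cells, 56 held UMIs of 2 or more of the 4 T cell markers, 73 held 2 or more of the 7 macrophage and monocyte markers, and 48 held both, at a median of 10175 UMIs per cell. The part of mixed droplets in the dendritic cell transcripts of that type was not tested.

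The genes of mature cells divided differently. Ccl22 had 334 of its 453 UMIs in cDCs and a mean there of 281 CPM, followed by Mo-DCs at 56.8 CPM and macrophages at 21.9 CPM. In macrophages, 37 of its 79 UMIs came from 1 cell. Fscn1 averaged 385 CPM over cDCs and had 36 UMIs in 10 Mo-DCs, and its 66.6 CPM in fibroblasts came from 103 of 375 cells with at most 7 UMIs each, in contrast to a maximum of 50 UMIs in a cDC. Ccl17 was rare, with 35 UMIs in 12 cDCs (29.5 CPM) and 50 UMIs in 7 macrophages (13.1 CPM). Siglech averaged 282 CPM in cDCs and 24.4 CPM in unconventional T cells, where 3 cells held its 22 UMIs, and 1 macrophage alone held 20. The ranges over hearts of cDCs and of the next type overlapped for Ccl17 and Siglech but not for Fscn1 and Ccl22.

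The partners of these receptors and chemokines were mostly found in lymphocytes. Xcl1, the ligand of XCR1, averaged 454 CPM in NKT cells, 336 CPM in NK cells and 324 CPM in central memory T cells (Tcm), and 13.8 CPM in cDCs. Flt3l, the ligand of FLT3, was low and widespread, with means from 9.98 CPM in macrophages to 48.9 CPM in resident memory-like T cells (Trm-like). Ccr4, the receptor of CCL22 and CCL17, had a UMI in 13 of 263 Tregs and 31 of 327 Tem/eff cells, with a mean of 24.4 CPM over Tregs, and had 0 UMIs in 171 cDCs. By counting error alone, that allows a UMI in up to 1.75% of cDCs, and it is no limit on cells that express the gene.

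Cell by cell, the annotated cDCs did not express the 10 genes evenly. Flt3 was the most widely detected, with a UMI in 110 of 171 cDCs and at most 9 in a cell, and the 9 cells richest in it held 21.6% of its UMIs. For Fscn1 the corresponding 9 cells held 62.6% of 468 UMIs, for Ccl22 76.3% of 334, for Siglech 58.6% of 319 and for Cd209a 43.7% of 574. Xcr1, Clec9a, Batf3 and Zbtb46 were mostly seen as single UMIs, in 8 of 15, 19 of 27, 17 of 33 and 36 of 57 cells with any, so that the absence of a UMI says little about any cell. The following classes therefore count only cells in which the transcript was captured.

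**Figure D2:**
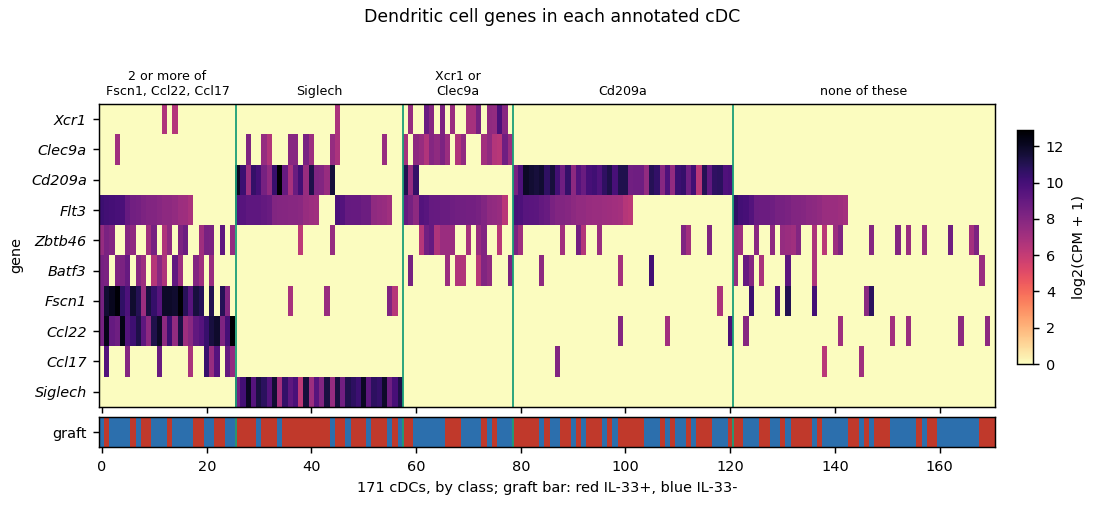
Columns are the 171 cDCs, rows the 10 genes, and color gives log2(CPM + 1). Cells are placed in the first class they meet, from left to right, and the lower bar gives the graft group. Fscn1 and Ccl22 fill the first class, which lacks Siglech and Cd209a, and Siglech cells lack Batf3, Ccl22 and Ccl17.

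Cells with a UMI of Xcr1 or Clec9a numbered 34, or 19.9% of cDCs, cells with Cd209a 64 (37.4%), cells with 2 or more of Fscn1, Ccl22 and Ccl17 26 (15.2%), and cells with Siglech 32 (18.7%). A further 50 cDCs (29.2%) were in none of these. No cell with 2 or more of the mature genes held Cd209a or Siglech. The 15 cells with Xcr1 included 8 with Clec9a, and all 15 also held Flt3. Siglech overlapped with Cd209a in 19 cells, which was 59.4% of Siglech cells and 29.7% of Cd209a cells, and with Xcr1 or Clec9a in 10 cells, only 1 of which held Xcr1.

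The 34 cells with Xcr1 or Clec9a also held other genes of cDC1, from a list that shares no gene with those that chose the cells. Wdfy4, needed for cross-presentation, averaged 404 CPM in these cells and 142 CPM in the other cDCs. Ppt1, a lysosomal thioesterase, averaged 403 and 69.2 CPM, Itgae (CD103) 44.9 and 0.929 CPM, and Cadm1, an adhesion molecule, 102 and 23.9 CPM. Cst3, cystatin C, which is not on that list, averaged 5272 and 1733 CPM, and was similarly high in the mature cells described below (5182 CPM). Itgae rests on few UMIs, with 0, 0, 2, 9, 2 and 1 in the cDCs of hearts 1 to 6. The partner list also holds Irf8, Naaa and Cd24a, at 773, 383 and 316 CPM over all cDCs of heart 4. Their levels in the class are not given here. The summed level of the 10 partner genes was higher in the class in each of the 4 hearts with 3 or more cells in and outside it. In heart 1 the sums were 2063 and 1404 CPM in and outside the class, in heart 3 2340 and 1662 CPM, in heart 4 3655 and 1490 CPM, and in heart 6 3640 and 1114 CPM. The mean difference was 1507 ± 979 CPM (SD, n = 4 hearts), and the two-sided exact sign-flip test gave p = 0.125, the smallest that 4 hearts allow. Tlr3 and Gcsam had a UMI in 2 and 3 of the 34 cells, and Snx22 in none of the cDCs. The class was mixed, since 10 of the 34 cells also held Siglech. Within the class, Siglech averaged 267, 1632, 0 and 24.8 CPM in hearts 1, 3, 4 and 6. In heart 3 the class also averaged 1811 CPM of Tcf4 and 1786 CPM of Ccr9. The part of the Siglech cells in the partner sums was not tested.

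The 53 cells with Cd209a but neither Xcr1 nor Clec9a were richer in Clec10a (522 against 48.3 CPM in the other cDCs), Mgl2 (347 against 30.8 CPM) and Itgam, which encodes CD11b (133 against 42.7 CPM). Summed over 8 partner genes of cDC2, the class exceeded the other cDCs in all 5 hearts that could be compared, by 1338 ± 446 CPM (SD, n = 5 hearts; exact sign-flip p = 0.0625, the smallest possible). Irf4, the transcription factor of cDC2, was higher in only 3 of the 5 hearts (means of 111 and 56.5 CPM), and Ltb was lower on average in the class, at 12.2 against 26.3 CPM. In these cells Zbtb46 averaged 37.4 CPM and Batf3 26.9 CPM, below the 88.0 and 62.0 CPM of the other cDCs. The class averaged 670 CPM of Cst3 against 3231 CPM. It also averaged 38.3 against 3.93 CPM of Fcgr1, which encodes CD64, a receptor typical of macrophages and monocyte-derived cells. That gene is near the floor, with 3, 0, 5, 5, 0 and 1 UMIs in all cDCs of hearts 1 to 6. The other macrophage markers are not given for this class.

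Cells with 2 or more of Fscn1, Ccl22 and Ccl17 formed a class with high levels of all 10 partner genes of mature cells. All 26 held Ccr7, the receptor that guides migration to lymph nodes, and Marcksl1, and these genes averaged 4065 and 1959 CPM in the class compared with 353 and 272 CPM outside. Socs2, a suppressor of cytokine signaling, averaged 616 against 41.4 CPM, Cacnb3, a calcium channel subunit, 567 against 23.4 CPM, Il15ra 194 against 3.64 CPM, and the chemokine Ccl5 1453 against 180 CPM. Each of the 26 cells held at least 5 of the 10 partner genes, with a median of 9, whereas the median was 2 in the other 145 cDCs, 19 of which also held 5 or more. The summed level was 12962 CPM in and 1164 CPM outside the class, higher in all 4 hearts compared, by 11798 ± 2847 CPM (SD, n = 4 hearts; exact sign-flip p = 0.125, the smallest possible). Adjusted over the 3 classes, each of these exact tests gave p = 0.125. Batf3 had a UMI in 15 of the 26 cells and 12.4% of the others, with means of 147 and 33.9 CPM, and Zbtb46 in 16 of the 26 and 28.3% of the others, with means of 164 and 55.9 CPM. Both were higher in the class in all 4 hearts. Batf3 was detected in 57.7% of the mature class and 32.4% of the cells with Xcr1 or Clec9a, classes that share 3 cells, at median depths of 6960 and 8209 UMIs.

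The 32 Siglech cells carried the genes of pDCs although they were annotated as cDCs. The class and its comparison were added after the values were seen, and they are given without a test. Tcf4 averaged 2290 CPM in Siglech cells and 248 CPM in the other cDCs, Bst2 (tetherin) 2127 and 243 CPM, the chemokine receptor Ccr9 2194 and 10.3 CPM, Ly6d 840 and 7.54 CPM, and Ly6c2 1413 and 28.0 CPM. Cox6a2 and Klk1 had UMIs in 20 and 9 Siglech cells and in none of the other 139 cDCs. Of the 8 pDC partner genes, 30 of the 32 cells held 3 or more, as did 21 of the 139 cDCs without Siglech. Class II genes were lower: H2-Ab1 averaged 1475 against 6660 CPM, H2-Eb1 721 against 4047 CPM and Cst3 565 against 2868 CPM. Flt3 had a UMI in 27 of the 32 cells, whereas Zbtb46 had one in 2 and Batf3 in 0, and 59.4% held Cd209a, at a mean of 798 CPM. Their median depth of 6806 UMIs was close to that of all cDCs.

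**Figure D3:**
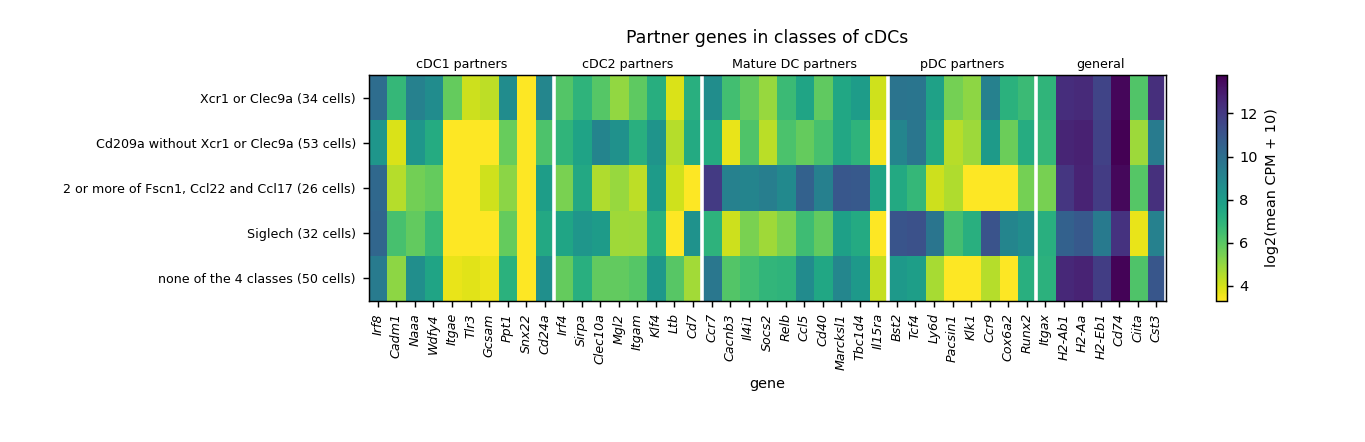
Rows are classes of cDCs set by UMIs of the dendritic cell genes, columns are partner genes in 5 lists, and color gives log2 of the mean CPM over the cells of the class plus 10. A cell can be in several rows. The mature partners stand out in the third row and the pDC partners in the fourth, where the class II genes are lowest.

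The genes most like each of the 10 across the 171 cDCs were found among 7635 genes by Pearson's r of log2(CPM + 1), with those at 0.5 or more named. All points come from the same cells and share their depth. Siglech was most like Ccr9 (r = 0.86), Cox6a2 (r = 0.81) and Mctp2 (r = 0.80). Fscn1 was most like Cacnb3 (r = 0.85), Cd200 (r = 0.80) and Mreg (r = 0.76), and Ccl22 was most like Mmp25 (r = 0.68), Zmynd15 (r = 0.67) and Socs2 (r = 0.67). Cd209a was most like Clec10a (r = 0.58), its neighbor in the family Cd209d (r = 0.57) and Ms4a6c (r = 0.55). Batf3 followed Mreg (r = 0.52) and Strip2 (r = 0.50). No gene reached 0.5 for Xcr1, Clec9a, Flt3, Zbtb46 or Ccl17.

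Next, the cDCs of IL-33+ and IL-33- hearts were compared. The question was whether the lack of graft IL-33 goes with other levels of the subset genes. The value per heart is the mean CPM over its cDCs, which does not tell a larger share of cells of a class from a higher level in each, and differences are on the scale of log2(mean CPM + 10). None of the 10 genes passed limma with Benjamini-Hochberg adjustment over all genes, where 0 of 7949 (0%) did, and limma-voom called 1 gene, Tmsb4x. At an unadjusted p of 0.05 or less, limma found 540 genes (6.79%), and 4 of the 10 were among them. The hearts of the groups did not overlap for 989 genes (12.4%) and for 5 of the 10. Of those 5, Zbtb46, Batf3 and Ccl22 were lower in IL-33+ hearts, as were 5.09% of all genes tested, and Flt3 and Siglech were higher, as were 7.35%. The median difference was -0.73 over the 10 genes, 8 of which were lower in IL-33+ hearts, and 0.06 over all genes, 3602 of which were lower.

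**Figure D4:**
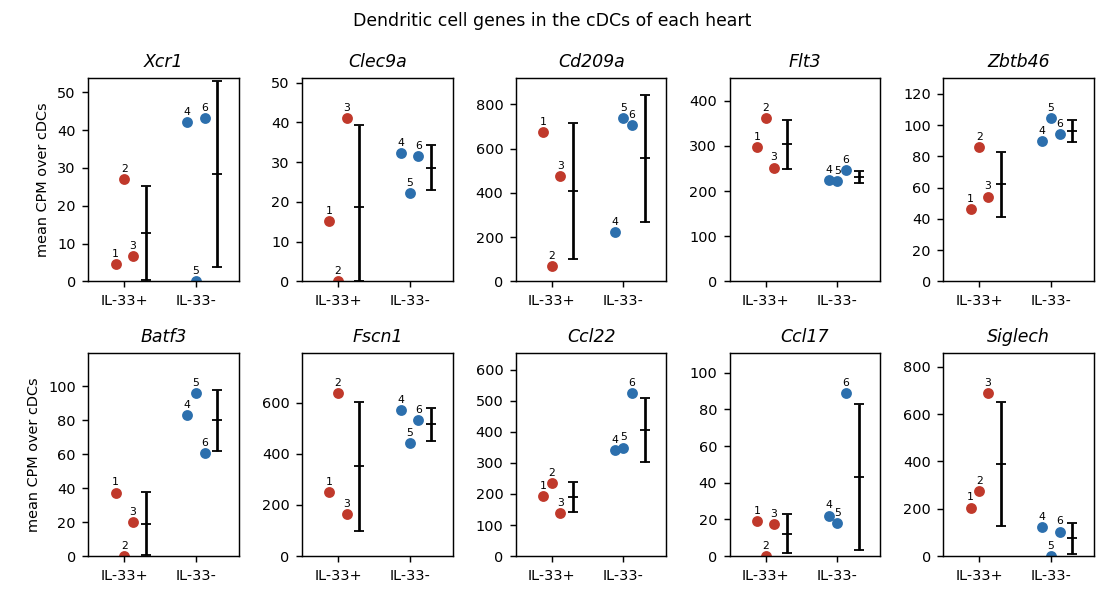
Each panel shows 1 gene, each point the mean CPM over the cDCs of a heart with the number of the heart, and the bars the mean and SD of 3 hearts, with the SD drawn down to 0 where it would pass below. The groups do not overlap for Flt3, Zbtb46, Batf3, Ccl22 and Siglech. Hearts 2 and 5 rest on 6 and 9 cDCs.

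Siglech, the pDC gene, differed most. Hearts 1, 2 and 3 had means of 205, 276 and 688 CPM, and hearts 4, 5 and 6 had 121, 0 and 104 CPM. All IL-33+ hearts were above all IL-33- hearts, and the 9 cDCs of heart 5 held no UMI. The difference was 2.72 ± 0.71 (SE, n = 3 hearts per group; limma adjusted p = 0.34), and it was 1.67 without hearts 2 and 5 and 1.52 without heart 5 alone. Without the filter on low counts the same difference passed limma's threshold (adjusted p = 0.0012). The Siglech values were unchanged there. That setting lets genes near the floor into limma's shared estimate of variance, so the lower p comes from the other genes of the fit. Cells with a Siglech UMI made up 21.1%, 16.7% and 36.4% of the cDCs of hearts 1 to 3 (8 of 38, 1 of 6 and 16 of 44 cells), with exact (Clopper-Pearson) 95% intervals of 9.55% to 37.3%, 0.421% to 64.1% and 22.4% to 52.2%. In hearts 4 to 6 they made up 8.33%, 0% and 11.5% (4 of 48, 0 of 9 and 3 of 26 cells), and the upper ends of the intervals were 33.6% in heart 5 and 30.2% in heart 6. These intervals cover counting error only. Within the Siglech cells, the level was 972, 1657 and 1892 CPM in hearts 1 to 3 and 1453 and 897 CPM in hearts 4 and 6, which overlapped.

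The other pDC genes lay on the same side. All 8 partner genes were higher in IL-33+ hearts, 6 of them at an unadjusted p of 0.05 or less and none after adjustment, with a median difference of 1.29. Of all 7949 genes tested, 309 were higher at such a p in limma. The partner genes were held largely by the same cells, so that their counts are not independent. Tcf4 averaged 761, 831 and 986 CPM in hearts 1 to 3 and 352, 182 and 456 CPM in hearts 4 to 6, and Ly6d 102, 166 and 420 CPM and 89.3, 0 and 11.1 CPM. The groups did not overlap for either gene. The differences in limma were 1.44 ± 0.28 for Tcf4 (adjusted p = 0.12) and 2.89 ± 0.67 for Ly6d (adjusted p = 0.28). In the cDCs without a Siglech UMI, Tcf4 still differed by 1.19 ± 0.32 without overlap (limma adjusted p = 0.79), while Ccr9 differed by 0.28 ± 0.67. Only 4 of the 8 partner genes passed the filter there, 1 of them at an unadjusted limma p of 0.05 or less. These cDCs still include the 21 cells with 3 or more pDC partners. In them 7281 genes were tested, and the share at such a p is not given here. Over the 15 alternative settings, this one included, 330 to 700 genes had such a p.

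The genes of mature cells lay on the opposite side. Ccl22 averaged 192, 236 and 140 CPM in hearts 1 to 3 and 341, 349 and 524 CPM in hearts 4 to 6. All IL-33- hearts were above all IL-33+ hearts, with a difference of -1.06 ± 0.28 (SE; limma adjusted p = 0.34). Fscn1 averaged 251, 637 and 165 CPM in hearts 1 to 3 and 571, 442 and 531 CPM in hearts 4 to 6. Heart 2, with 1 mature cell among 6, was the highest of all, so that the groups overlapped (difference -0.76 ± 0.35, limma adjusted p = 0.73). The Fscn1 difference was -1.29 without heart 2 and -0.35 without heart 3. Ccl17 averaged 19.2, 0 and 17.7 CPM in hearts 1 to 3 and 22.1, 18.1 and 88.8 CPM in hearts 4 to 6, with a difference of -1.15 ± 0.66, which was -0.65 without heart 2 and -0.58 without heart 6. Within the 26 mature cells, which were chosen in part by Ccl22, it averaged 1232, 1206 and 2049 CPM in hearts 1 to 3 and 2244, 2766 and 1514 CPM in hearts 4 to 6, where hearts 2 and 5 had 1 such cell each.

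All 10 partner genes of the mature class were also lower in IL-33+ hearts, 5 of them at an unadjusted p of 0.05 or less and none after adjustment. Of all 7949 genes tested, 540 had such a p in limma, 309 of them higher in IL-33+ hearts. The mature partner genes also share cells, so that their counts are not independent. Ccr7 had 586, 514 and 273 CPM in hearts 1 to 3 and 1164, 886 and 2144 CPM in hearts 4 to 6. Its groups did not overlap, with a difference of -1.56 ± 0.30 (limma adjusted p = 0.12). Without the Siglech cells the difference of Ccr7 was -1.31 ± 0.30. Without the 26 mature cells, where the 19 others with 5 or more partners remain, it was -1.39 ± 0.47, with overlap between the groups. The class II and antigen presentation genes were lower in IL-33+ hearts as well, 7 of 7, with 5 at an unadjusted p of 0.05 or less. H2-Aa averaged 6399, 3877 and 5208 CPM in hearts 1 to 3 and 6999, 9436 and 7934 CPM in hearts 4 to 6 (difference -0.67 ± 0.16, limma adjusted p = 0.29). The groups did not overlap for H2-Aa over all cDCs. In cDCs without a Siglech UMI its difference was -0.44 ± 0.17, and 2 of the 7 genes had an unadjusted p of 0.05 or less. There the groups of hearts overlapped for all 7. Their median difference was -0.34, against 0.01 over all 7281 genes tested in those cells. Over the 15 alternative settings, that one included, 330 to 700 genes had such a p in limma. The shares of the 7281 genes at such a p or without overlap are not given here.

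Batf3 is a cDC1 factor, but it was detected here in more of the mature class than of the cells with Xcr1 or Clec9a. It averaged 37.4, 0 and 20.1 CPM in hearts 1 to 3 and 83.2, 95.9 and 60.8 CPM in hearts 4 to 6. The groups did not overlap, with a difference of -1.87 ± 0.59 (limma adjusted p = 0.51), which was -1.10 without hearts 2 and 5, -1.23 without heart 2 alone and -1.71 without the Siglech cells. Without the mature cells the difference was -1.55 ± 0.68, and the groups overlapped. Xcr1 averaged 4.52, 27.1 and 6.63 CPM in hearts 1 to 3 and 42.1, 0 and 43.1 CPM in hearts 4 to 6, and Clec9a averaged 15.2, 0 and 41.0 CPM and 32.3, 22.1 and 31.4 CPM. Over all cDCs, both overlapped between groups, with differences of -0.54 ± 0.71 and -0.71 ± 0.64. With a heart left out, that of Xcr1 lay between -1.34 (heart 5) and -0.14 (heart 6), and that of Clec9a between -1.27 (heart 3) and -0.10 (heart 2). Without the hearts of 6 and 9 cDCs, the difference of Xcr1 was -1.76 (limma adjusted p = 0.27). In cDCs without a Siglech UMI, the difference of Clec9a was -1.25 ± 0.62 and its groups did not overlap (limma adjusted p = 0.90). That of Xcr1 was -0.52 ± 0.75, with overlap.

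Zbtb46 averaged 46.4, 85.8 and 54.2 CPM in hearts 1 to 3 and 89.9, 104 and 94.5 CPM in hearts 4 to 6, which did not overlap (difference -0.59 ± 0.39, limma adjusted p = 0.83). Heart 2 lay just below heart 4. Without the Siglech cells the difference of Zbtb46 was -0.31 ± 0.39, and the groups overlapped. Flt3 varied least over the 6 hearts relative to its mean, at 297, 361 and 252 CPM in hearts 1 to 3 and 224, 222 and 246 CPM in hearts 4 to 6, with a difference of 0.36 ± 0.26 (limma adjusted p = 0.84), which was 0.24 without heart 2. Leaving out the Siglech cells gave 0.19 ± 0.29 for Flt3, with overlap between the groups. Cd209a averaged 673, 69.8 and 476 CPM in hearts 1 to 3 and 222, 736 and 707 CPM in hearts 4 to 6. It gave no direction: the difference was -0.74 ± 0.58 with all hearts and 0.50 without hearts 2 and 5.

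**Figure D5:**
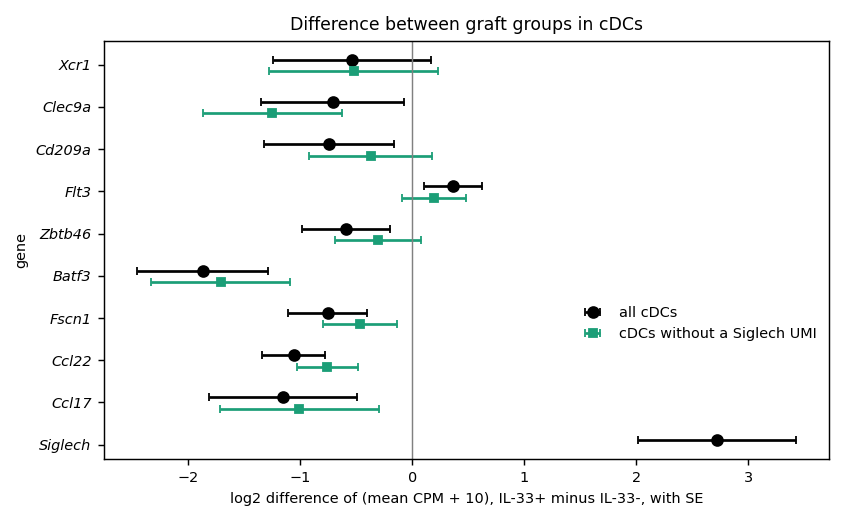
The horizontal axis gives the difference between IL-33+ and IL-33- hearts in log2(mean CPM + 10) over cDCs, with its SE from limma, for each gene (rows). Black points use all cDCs and green squares those without a Siglech UMI. Siglech lies at 2.72, and the 8 genes to the left of 0 stay there without the Siglech cells, closer to 0 except Clec9a.

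The share of cells in each class was compared as well. After each cDC was thinned to 2661 UMIs, the depth of the shallowest, cells with 2 or more of Fscn1, Ccl22 and Ccl17 made up 9.16%, 16.7% and 6.18% of the cDCs of hearts 1 to 3 and 10.8%, 11.1% and 27.9% of those of hearts 4 to 6. The group means were 10.7% ± 5.40 and 16.6% ± 9.77 (SD, n = 3 hearts per group), and the two-sided exact permutation test gave p = 0.5, where 0.1 is the smallest possible. The difference of -5.93 percentage points was -0.29 without heart 6. Cells with Xcr1 or Clec9a made up 7.92% ± 3.14 in IL-33+ and 10.3% ± 4.85 in IL-33- hearts (exact p = 0.6), and cells with Cd209a 31.9% ± 19.2 and 27.6% ± 9.74 (exact p = 0.8). With a heart left out, the difference for Xcr1 or Clec9a lay between -5.14 (heart 5) and -0.86 (heart 4) percentage points. Of the 34 cells of that class before thinning, 10 also held Siglech. The adjusted p over the 3 shares was 0.8 for each of these exact tests. Without thinning, the differences between group means were -7.89, -2.11 and 11.2 percentage points in the same order, at exact p = 0.5, 0.8 and 0.5. The thinned share of Siglech cells, given without a test, was 22.4% ± 9.11 in IL-33+ and 4.79% ± 4.15 in IL-33- hearts, and the groups did not overlap.

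Markers of other cells moved with the graft group in cDCs to different extents. The summed level of the 7 macrophage and monocyte markers, all detected, ranged from 131 to 948 CPM in IL-33+ hearts and from 134 to 194 CPM in IL-33- hearts, with the highest in heart 3, which also had the highest Siglech. That list holds Ly6c2, a gene of the Siglech cells, which made up 681 of the 948 CPM in heart 3. Without Ly6c2, a choice made after the values were seen, the sums were 68.9 to 267 CPM and 39.1 to 118 CPM, and the groups overlapped. T cell markers summed to 32.2 to 70.2 CPM and to 0 to 22.1 CPM, and the groups did not overlap. Only 1 of the 4 T cell markers passed the filter on low counts. The 12.4% of single genes tested without overlap is thus no background for these sums. These sums rest on few UMIs: the 34.7 CPM of heart 2 was 1 UMI of Trac in 1 cell, and heart 5 was at 0. The part of markers of other cells in the differences was not tested. Without the 11 cDCs with lymphocyte markers, the Siglech difference was 2.72, as with them, and that of Ccl22 was -1.03.

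Outside cDCs, the 10 genes passed the filter on low values in 31 combinations of gene and type. None was called, whereas 10 of 105226 tests (0.0095%) in these 13 types were, and 1 of the 31 had an unadjusted p of 0.05 or less in limma, against 4.55% of all tests. It was Zbtb46 in NK cells, at 32.8, 74.5 and 51.9 CPM in hearts 1 to 3 and 30.9, 7.94 and 26.6 CPM in hearts 4 to 6 (difference 1.02 ± 0.38, limma adjusted p = 0.81). The groups of hearts did not overlap in 2 of the 31, compared with 9.62% of all tests. The largest difference of the 31 was that of Siglech in Mo-DCs, at -1.56 ± 1.17, on the side opposite to that in cDCs. It rests on 10 UMIs in 4 cells, and the groups overlapped.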

How the data were processed

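Cells of 6 heart allografts were tagged with hashtags, pooled and sequenced with the 10x 3' kit. The authors aligned reads with Cell Ranger to mm10, filtered and annotated the cells in Partek Flow 10.0.23.0425, and deposited every gene's log2(CPM + 1) in each cell. The logarithm was undone, and the UMIs were recovered from the steps of the values: 99.9% of values up to 20 UMIs were whole to within 0.05. The 22 symbols that often were not whole include none of the 10 genes or of the lists. Hearts and types are those of the deposited annotation. No cell was removed and no doublet caller was run.

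For each type and heart, mean CPM plus 10 was compared on the log2 scale with limma 3.58.1 (lmFit, then eBayes with trend) in R 4.3.3 for genes with 10 or more UMIs and a UMI in 3 or more hearts, with a Benjamini-Hochberg threshold of 0.05. The fit was tested on simulated hearts. Single values were compared with exact permutation tests. Shares were thinned over 100 draws. Alternatives changed the pseudocount, the filter, the summing of UMIs, the method (limma-voom), the cells and the hearts. Python 3.11.15 was used elsewhere. Named were the 10 genes, fixed partner, ligand and receptor lists, genes called in cDCs, and the 3 most correlated genes at r of 0.5 or more. The genes and lists were chosen with earlier results of these data known.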

Additional observations from a re-analysis of the deposited data

Results flagged for a closer look

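Batf3 and Zbtb46 had groups of hearts that were fully apart in 2 cell types, in opposite directions. Zbtb46 was lower in IL-33+ hearts in cDCs (-0.59 on the log2 scale) and higher in NK cells (1.02). The difference of the 2 effects was -1.61 with all cDCs. Without the Siglech cells, the groups of Zbtb46 in cDCs overlapped (-0.31 ± 0.39). Batf3 was lower in IL-33+ hearts in cDCs (-1.87) and higher in fibroblasts (0.81), a difference of -2.68. No test result is given for either difference. The genes were picked for hearts that lay apart in opposite directions, which fixes the outcome of a permutation test in advance. The fibroblast value rests on 11 UMIs, and 2 of the 3 IL-33- hearts were at 0. In cDCs, the groups of Batf3 overlapped once the mature cells were left out (-1.55 ± 0.68).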

How the results depend on the processing

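With 0 genes called in cDCs, 20 were called without the filter on low counts (among them Siglech, adjusted p = 0.0012, and Ccr7), 1 with limma-voom (Tmsb4x), and 0 to 2 with a heart left out. In the other types, 10 calls became 3 with a pseudocount of 1 CPM, 37 with 50 CPM, 47 without the filter, and 4 to 106 with a heart left out. The Cd209a difference turned to 0.25 with limma-voom, 0.50 without the hearts of under 10 cDCs and 0.21 without heart 2, and ranged from -1.34 to 0.21 with a heart left out. The share of cDCs with Cd209a, 4.29 percentage points higher in IL-33+ hearts, turned to -4.67 when 2 UMIs were required, and ranged from -4.28 without heart 1, through -1.33 without heart 4, to 14.6 without heart 2. The genes at an unadjusted p of 0.05 or less fell from 540 to 330 without heart 5. The adjusted p of Siglech ranged from 0.0012 to 0.997 over its alternatives, and that of Ccl22 from 0.11 to 0.997. Of the recomputed differences of the 10 genes, 142 kept their direction and their side of the threshold, 3 (Cd209a) changed direction and 1 (Siglech) passed the threshold. All 19 values of partner lists kept their direction, and their exact p could not pass 0.05 under any setting. All 20 levels in cDCs moved by less than the spread between hearts. Leaving out cells with Siglech or with the mature genes was added after the data were seen. The causes were not tested. No paired analysis was possible because the hashtags number the hearts 1 to 6 and the groups share no number. Xcr1 and Clec9a rest on 74 and 76 UMIs in all.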
